A study of Homo sapiens with 20 samples.

Results

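The ETS transcription factors measured here are the 10 genes SPIB, SPI1, ETS1, ETS2, ETV6, ELF1, FLI1, GABPA, ELK4 and ELF2, taken by their symbols from the 58288 genes counted in each library. All 10 were among the 16478 genes with enough counts to be tested. They were set against 18 other human ETS genes, of which 9 could be tested.

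Polyadenylated RNA was sequenced from the human B cell lymphoma lines DOHH2 and U2932, grown with a compound that the labels call TK or with DMSO as control. DOHH2 had 3 libraries with TK for 18 h, 2 with DMSO for 18 h (replicates 1 and 3), 3 with TK for 8 h and 3 with DMSO for 8 h. U2932 had 3 libraries with TK for 18 h, 1 with DMSO for 18 h (replicate 2), 2 with TK for 8 h and 3 with DMSO for 8 h. Both lines come from diffuse large B cell lymphoma, and the labels name no genetic change in either. The sources used here give neither the dose of TK nor what it is. Nothing in the labels says that replicates were grown as separate cultures, so each p-value covers only the spread between libraries, which may be technical.

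Each library held 30363255 to 52275430 counts in genes. The unit CPM sets each gene's count against the total of its library, here after TMM scaling, which evens out differences in composition. The 6 B cell markers checked, among them MS4A1 and PAX5, summed to 805 to 1481 CPM in DOHH2 and 2351 to 3009 CPM in U2932, which is 6 of 6 above 1 CPM on average in both. The 6 T cell markers summed to at most 0.716 CPM in DOHH2 and 0.266 CPM in U2932, the 6 myeloid markers to at most 0.951 CPM in DOHH2 and 2.59 CPM in U2932, while the 5 megakaryocyte and erythroid markers reached at most 0.260 CPM in DOHH2 and 0.488 CPM in U2932, with CD3D and MPO at 0 in DOHH2 and PF4 at 0 in both. In bulk RNA, fewer cells expressing a gene and less of its RNA per cell cannot be told apart. By their summed levels, the subtype markers did not follow the usual classes of the lines, DOHH2 as germinal centre type and U2932 as activated type. The 6 germinal centre type markers summed to 58.7 to 102 CPM in the libraries labelled DOHH2 and 632 to 725 CPM in those labelled U2932, and BCL6 averaged 0.106 ± 0.115 CPM in DOHH2 and 400.2 ± 13.8 CPM in U2932 with DMSO at 8 h (SD, n = 3 each). The 7 activated type markers summed to 1030 to 1436 CPM in DOHH2 and 605 to 765 CPM in U2932. Such sums weigh the highest genes most, here BCL6 and IRF4 (608 CPM on average over all libraries). By number, 3 of 6 germinal centre type markers averaged at least 1 CPM in DOHH2 and 6 of 6 in U2932. Of the activated type markers 6 of 7 did so in each line. The lines are named here as labelled, and every direction between them holds only as far as the labels do. Among the libraries, DOHH2 TK 18 h replicate 1 had 56.6% of its reads without a unique position (20.7 to 34.3% in the other 19), and DOHH2 TK 8 h replicate 1 had the lowest mitochondrial share, 3.29% (5.06 to 8.08%).

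ETS factors share a winged helix domain, the ETS domain, that binds DNA at a short GGAA core. Bases around the core and partner proteins sort the family into classes. In B cells PU.1, made by SPI1, and its close relative Spi-B, made by SPIB, bind together with IRF4 or IRF8 at genes of the B cell receptor. ETS1 holds back plasma cell formation, whereas ETV6 is a repressor that pairs with itself or with FLI1. GABPA, ELK4, ELF1 and ELF2 are found in most cell types.

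The bases just before the start of 3 genes are shown because SPIB and ETV6 were the members that differed most between the lines and ELK4 holds the GABPA and ELK type of ETS site. They are the 250 bases before the RefSeq start on GRCh38.p14, written in the direction of the gene. Capitals mark the ETS core GGAA or its reverse complement TTCC, and in SPIB the TATA box TATAAA. SPIB is from chr19:50418688-50418937 on the plus strand, ETV6 from chr12:11649424-11649673 on the plus strand and ELK4 from chr1:205632012-205632261 on the minus strand.
SPIB: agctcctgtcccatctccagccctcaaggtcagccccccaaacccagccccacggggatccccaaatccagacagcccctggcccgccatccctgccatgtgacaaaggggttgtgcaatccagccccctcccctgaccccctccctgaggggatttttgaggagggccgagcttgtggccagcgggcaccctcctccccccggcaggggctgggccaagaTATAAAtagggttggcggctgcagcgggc
ETV6: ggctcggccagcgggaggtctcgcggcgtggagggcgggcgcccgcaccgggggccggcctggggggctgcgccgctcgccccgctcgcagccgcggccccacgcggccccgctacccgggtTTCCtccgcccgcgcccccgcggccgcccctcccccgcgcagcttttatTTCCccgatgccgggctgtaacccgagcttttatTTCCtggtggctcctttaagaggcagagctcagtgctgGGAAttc
ELK4: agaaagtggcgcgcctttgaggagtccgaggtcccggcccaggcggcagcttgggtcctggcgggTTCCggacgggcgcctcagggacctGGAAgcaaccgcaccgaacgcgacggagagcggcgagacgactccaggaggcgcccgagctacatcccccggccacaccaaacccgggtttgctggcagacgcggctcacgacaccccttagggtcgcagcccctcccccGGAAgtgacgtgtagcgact

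Of the 10 members, 7 had an entry in the RefSeq promoter table and SPI1, ETS1 and FLI1 had none. No GGAA core stood in the SPIB window on either strand, while 92.7% of 35116 promoter windows of this length held one. Among the members, an ELF1 window (chr13:40982283-40982532) and an ELF2 window (chr4:139177219-139177468) also held none. The SPIB window held 1 TATAAA, a motif found in 10.7% of windows, and so did the same ELF2 window and another ELF1 window. ETV6 had 4 cores, 1 of them in GAGGAA, the PU.1 box, which 23.6% of windows hold. An ETS2 window (chr21:38805679-38805928) held GAGGAA as well. The ELK4 window had 3 cores, the one nearest the start in CCGGAAGT, and the GABPA window had 1 core, also in CCGGAAGT. This longer motif stood in 3.42% of windows. Both strands were searched, and CCGGAAGT and GAGGAA each contain the core. These matches describe the letters of the windows and not binding.

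To compare genes, CPM was divided by the length of each gene's merged exons in GENCODE v29, which also counts exons that these cells may not use. In DOHH2 the order of the medians was ETS1 (62.1 CPM per kilobase), ELF1 (33.8), SPI1 (20.4), ETV6 (11.6), FLI1 (7.92), SPIB (6.51), ELK4 (6.48), GABPA (4.35), ETS2 (3.83) and ELF2 (2.42). The first 4 and the last kept their places in all 11 DOHH2 libraries. From FLI1 to ETS2 in this order, each gene overlapped in range with the next. In U2932 the order was SPIB (80.2 CPM per kilobase), ETS1 (47.9), ELF1 (29.2), SPI1 (10.2), ETS2 (6.99), GABPA (6.74), ELF2 (5.21), ELK4 (3.39), FLI1 (3.39) and ETV6 (1.90). The first 3 and the last kept their places in all 9 U2932 libraries, and each of the 6 between overlapped in range with the next of the 6. SPIB was thus first in all 9 U2932 libraries and between places 5 and 8 in the 11 DOHH2 libraries.

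**Figure D1:**
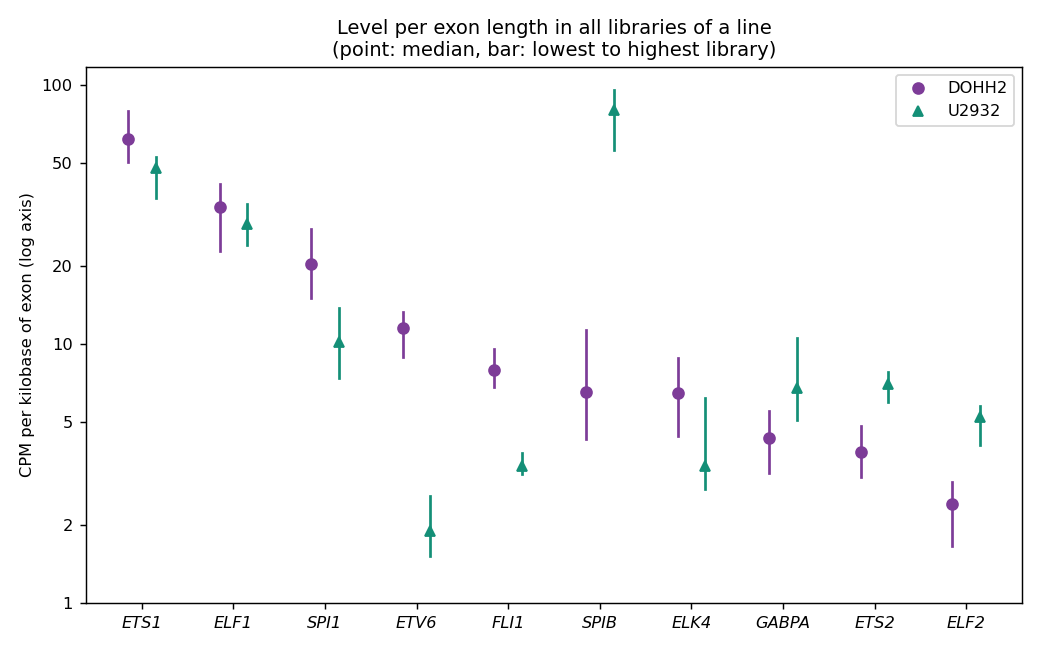
Level per exon length of the 10 ETS genes, in CPM per kilobase of exon on a log axis, with DOHH2 as circles (11 libraries) and U2932 as triangles (9 libraries). Points are medians and bars run from the lowest to the highest library; SPIB has its median at 6.51 in DOHH2 and 80.2 in U2932, and ETV6 at 11.6 in DOHH2 and 1.90 in U2932.

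The clearest differences were between the lines. By the quasi-likelihood test of edgeR on DOHH2 against U2932, with p adjusted after Benjamini and Hochberg over all genes and a threshold of 0.05, 9 members passed with TK at 18 h (6 higher and 3 lower in DOHH2), 8 with DMSO at 18 h (5 and 3), 9 with TK at 8 h (5 and 4) and 7 with DMSO at 8 h (3 and 4). Of all genes tested, 69.2% passed with TK at 18 h (34.2% higher and 34.9% lower), 52.3% with DMSO at 18 h (25.4% and 26.9%), 62.8% with TK at 8 h (30.7% and 32.1%) and 67.8% with DMSO at 8 h (33% and 34.9%). Differences were thus frequent among all genes as well. The 4 comparisons share no library. In all 4, SPIB, ETS2 and ELF2 were lower and ETV6 and FLI1 higher in DOHH2, which is 5 of 10 members, while 44.4% of all genes passed in the same direction in all 4.

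SPIB (ENSG00000269404.6, GRCh38 as for all genes here, chr19:50418938-50431313, plus strand, 5 merged exons), the B cell relative of PU.1, had the widest difference. In DOHH2 its level was 26.2, 24.1 and 20.3 CPM with TK and 18.4 and 21.1 CPM with DMSO at 18 h, and 31.9, 48.7 and 27.9 CPM with TK and 28.2, 41.0 and 28.98 CPM with DMSO at 8 h. In U2932 it was 329.7, 358 and 343 CPM with TK and 307 CPM with DMSO at 18 h, and 286 and 366 CPM with TK and 239.8, 359.6 and 411 CPM with DMSO at 8 h. All 11 DOHH2 libraries lay below all 9 U2932 libraries, the highest DOHH2 library at 48.7 CPM and the lowest U2932 library at 239.8 CPM. SPIB was 14.6-fold lower in DOHH2 with TK at 18 h (log2 difference -3.87, SE 0.23, adjusted p = 3.92e-12 by edgeR), 15.5-fold lower with DMSO at 18 h (-3.96, SE 0.30), 9.01-fold lower with TK at 8 h (-3.17, SE 0.23) and 10.3-fold lower with DMSO at 8 h (-3.36, SE 0.22). It shares 839 exon bases with the gene AC020909.1 on the same strand, which had 0 or 1 count in every library.

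SPI1 (ENSG00000066336.11, chr11:47354860-47378576, minus strand), which makes PU.1, was higher in DOHH2 in 3 of the 4 comparisons. Its level in DOHH2 was 50.7, 36.5 and 35.1 CPM with TK and 33.7 and 33.6 CPM with DMSO at 18 h, and 45.8, 57.6 and 42.2 CPM with TK and 31.0, 48.7 and 46.5 CPM with DMSO at 8 h. Its level in U2932 was 28.5, 24.5 and 23.8 CPM with TK and 24.2 CPM with DMSO at 18 h, and 21.0 and 15.4 CPM with TK and 18.8, 16.0 and 16.5 CPM with DMSO at 8 h. The lines did not overlap, but lay closer at 18 h than at 8 h. The log2 difference of DOHH2 over U2932 was 0.67 with TK at 18 h (SE 0.18, adjusted p = 0.00238 by edgeR), 0.47 with DMSO at 18 h (SE 0.27, adjusted p = 0.152), 1.42 with TK at 8 h (SE 0.21, adjusted p = 5.91e-06) and 1.30 with DMSO at 8 h (SE 0.18, adjusted p = 2.45e-06). In DOHH2 the level per kilobase of SPI1 (15.01 to 27.9) lay above that of SPIB (4.30 to 11.4), whereas in U2932 that of SPI1 (7.42 to 13.8) lay below that of SPIB (56.0 to 96.0).

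ETV6 (ENSG00000139083.10, chr12:11649854-11895402, plus strand), the repressor, was higher in DOHH2 throughout. In DOHH2 it stood at 93.7, 75.6 and 74.1 CPM with TK and 63.0 and 64.2 CPM with DMSO at 18 h, and at 92.6, 92.5 and 83.2 CPM with TK and 81.9, 82.5 and 75.4 CPM with DMSO at 8 h. In U2932 it stood at 13.5, 12.0 and 11.1 CPM with TK and 11.8 CPM with DMSO at 18 h, and at 18.3 and 13.5 CPM with TK and 16.8, 10.8 and 13.7 CPM with DMSO at 8 h. The lines were far from overlapping. ETV6 was 6.65-fold higher in DOHH2 with TK at 18 h (log2 difference 2.73, SE 0.16, adjusted p = 3.68e-12 by edgeR), 5.40-fold higher with DMSO at 18 h (2.43, SE 0.25), 5.64-fold higher with TK at 8 h (2.49, SE 0.18) and 5.80-fold higher with DMSO at 8 h (2.54, SE 0.16).

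FLI1 and ETS1 lie close together on chromosome 11 and both activate genes in lymphocytes. FLI1 (ENSG00000151702.16, chr11:128686535-128813267, plus strand) ran from 55.7 to 78.2 CPM in DOHH2 (median 64.7) and from 25.7 to 31.0 CPM in U2932 (median 27.7). No libraries of the lines overlapped. FLI1 was 2.56-fold higher in DOHH2 with TK at 18 h (log2 difference 1.36, SE 0.11, adjusted p = 1.13e-09 by edgeR), 2.46-fold higher with DMSO at 18 h, 2.15-fold higher with TK at 8 h and 2.25-fold higher with DMSO at 8 h.

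ETS1 (ENSG00000134954.14, chr11:128458761-128587558, minus strand) was at 491, 498 and 478 CPM in DOHH2 with TK and 411 and 444 CPM with DMSO at 18 h, and at 359.8, 439 and 569 CPM with TK and 369, 506 and 431 CPM with DMSO at 8 h. In U2932 it was at 361, 299.8 and 334 CPM with TK and 262 CPM with DMSO at 18 h, and at 306 and 378 CPM with TK and 356, 354 and 343 CPM with DMSO at 8 h. With TK at 8 h the ranges of the lines overlapped, while in the other 3 comparisons every DOHH2 library lay above. The log2 difference was 0.56 with TK at 18 h (SE 0.14, adjusted p = 0.00185 by edgeR), 0.71 with DMSO at 18 h (SE 0.22, adjusted p = 0.0117), 0.41 with TK at 8 h (SE 0.16, adjusted p = 0.0327) and 0.31 with DMSO at 8 h (SE 0.14, adjusted p = 0.0629). The call of ETS1 with TK at 8 h was lost without DOHH2 TK 8 h replicate 3 (0.22, adjusted p = 0.205) or U2932 TK 8 h replicate 1 (0.27, adjusted p = 0.278). Without DOHH2 DMSO 8 h replicate 1, ETS1 passed with DMSO at 8 h (0.42, adjusted p = 0.0232).

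ETS2 and ELF2 were lower in DOHH2 in all 4 comparisons. ETS2 (ENSG00000157557.11, chr21:38805307-38824955, plus strand), a paralogue of ETS1, ran from 14.1 to 22.2 CPM in DOHH2 (median 17.6) and from 27.4 to 35.7 CPM in U2932 (median 32.1). ELF2 (ENSG00000109381.19, chr4:139028112-139177218, minus strand), a paralogue of ELF1, ran from 14.3 to 25.1 CPM in DOHH2 (median 20.7) and from 34.9 to 49.3 CPM in U2932 (median 44.6). For neither gene did the lines overlap. ETS2 had a log2 difference of -0.95 with TK at 18 h (SE 0.14, adjusted p = 5.67e-06 by edgeR), -0.51 with DMSO at 18 h (SE 0.21, adjusted p = 0.0427), -0.90 with TK at 8 h and -0.75 with DMSO at 8 h. Without DOHH2 DMSO 18 h replicate 1, the ETS2 difference with DMSO at 18 h was -0.34 (adjusted p = 0.260). ELF2 had a log2 difference of -0.74 with TK at 18 h (SE 0.14, adjusted p = 6.42e-05), -0.87 with DMSO at 18 h, -1.34 with TK at 8 h and -1.35 with DMSO at 8 h (SE 0.14).

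GABPA, ELK4 and ELF1 each passed in some but not all of the 4 comparisons. GABPA (ENSG00000154727.10, chr21:25734570-25772460, plus strand), the DNA-binding subunit of GA-binding protein and a regulator of mitochondrial genes, averaged 25.6 ± 5.25 CPM with TK and 26.0 ± 3.29 CPM with DMSO in DOHH2 at 18 h, and 32.0 ± 4.80 CPM with TK and 31.0 CPM with DMSO in U2932 at 18 h (SD, n = 3, 2, 3 and 1). At 8 h it averaged 22.4 ± 4.73 CPM with TK and 21.6 ± 2.64 CPM with DMSO in DOHH2, and 42.4 ± 9.18 CPM with TK and 47.1 ± 10.4 CPM with DMSO in U2932 (SD, n = 3, 3, 2 and 3). The lines overlapped for GABPA with TK at 18 h only. Its log2 difference passed at 8 h, at -0.92 with TK (SE 0.21, adjusted p = 0.000846 by edgeR) and -1.12 with DMSO (SE 0.20, adjusted p = 3.83e-05), and did not at 18 h, at -0.32 with TK (adjusted p = 0.151) and -0.25 with DMSO (adjusted p = 0.483). GABPA shares 413 exon bases with ATP5PF on the opposite strand, counted as ATP5J at 94.6 to 153 CPM in DOHH2 libraries and 131 to 223 CPM in U2932 libraries, and the sources used here do not say whether counting used strand.

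ELK4 (ENSG00000158711.13, chr1:205597556-205631962, minus strand), which joins SRF at immediate early genes, averaged 83.3 ± 19.3 CPM with TK and 74.2 ± 2.91 CPM with DMSO in DOHH2 at 18 h, and 36.4 ± 3.99 CPM with TK and 39.4 CPM with DMSO in U2932 at 18 h (SD, n = 3, 2, 3 and 1). At 8 h it averaged 81.9 ± 26.9 CPM with TK and 78.2 ± 8.53 CPM with DMSO in DOHH2, and 54.4 ± 18.7 CPM with TK and 66.5 ± 9.04 CPM with DMSO in U2932 (SD, n = 3, 3, 2 and 3). The groups were apart at 18 h and overlapped at 8 h. Its log2 difference was 1.19 with TK at 18 h (SE 0.22, adjusted p = 6.46e-05 by edgeR), 0.91 with DMSO at 18 h (SE 0.34, adjusted p = 0.0278), 0.59 with TK at 8 h (SE 0.24, adjusted p = 0.0418) and 0.23 with DMSO at 8 h (SE 0.22, adjusted p = 0.344). The ELK4 call with DMSO at 18 h was lost without DOHH2 DMSO 18 h replicate 1 (0.87, adjusted p = 0.0746) or replicate 3 (0.95, adjusted p = 0.0532). That with TK at 8 h was lost without DOHH2 TK 8 h replicate 2 (0.56, adjusted p = 0.0851) or 3 (0.35, adjusted p = 0.217), or U2932 TK 8 h replicate 1 (0.28, adjusted p = 0.434). Without U2932 TK 8 h replicate 2 it was 0.99 (adjusted p = 0.00948).

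ELF1 (ENSG00000120690.15, chr13:40932028-41061440, minus strand), which acts on genes of B and T cells, was at 155, 181 and 169.9 CPM with TK and 155 and 169 CPM with DMSO in DOHH2 at 18 h, and at 151, 108 and 131 CPM with TK and 105 CPM with DMSO in U2932 at 18 h. At 8 h it was at 99.5, 121 and 147 CPM with TK and 130.4, 125 and 114 CPM with DMSO in DOHH2, and at 124 and 140.2 CPM with TK and 143, 126 and 112 CPM with DMSO in U2932. The lines overlapped at 8 h and were apart at 18 h. The log2 difference of ELF1 was 0.38 with TK at 18 h (SE 0.14, adjusted p = 0.0238 by edgeR), 0.63 with DMSO at 18 h (SE 0.22, adjusted p = 0.0203), -0.11 with TK at 8 h (adjusted p = 0.569) and -0.04 with DMSO at 8 h (adjusted p = 0.798). The ELF1 call with TK at 18 h was lost without DOHH2 TK 18 h replicate 2 (0.33, adjusted p = 0.0802), U2932 TK 18 h replicate 2 (0.25, adjusted p = 0.162) or replicate 3 (0.37, adjusted p = 0.0599), and that with DMSO at 18 h without DOHH2 DMSO 18 h replicate 3 (0.57, adjusted p = 0.0783).

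**Figure D2:**
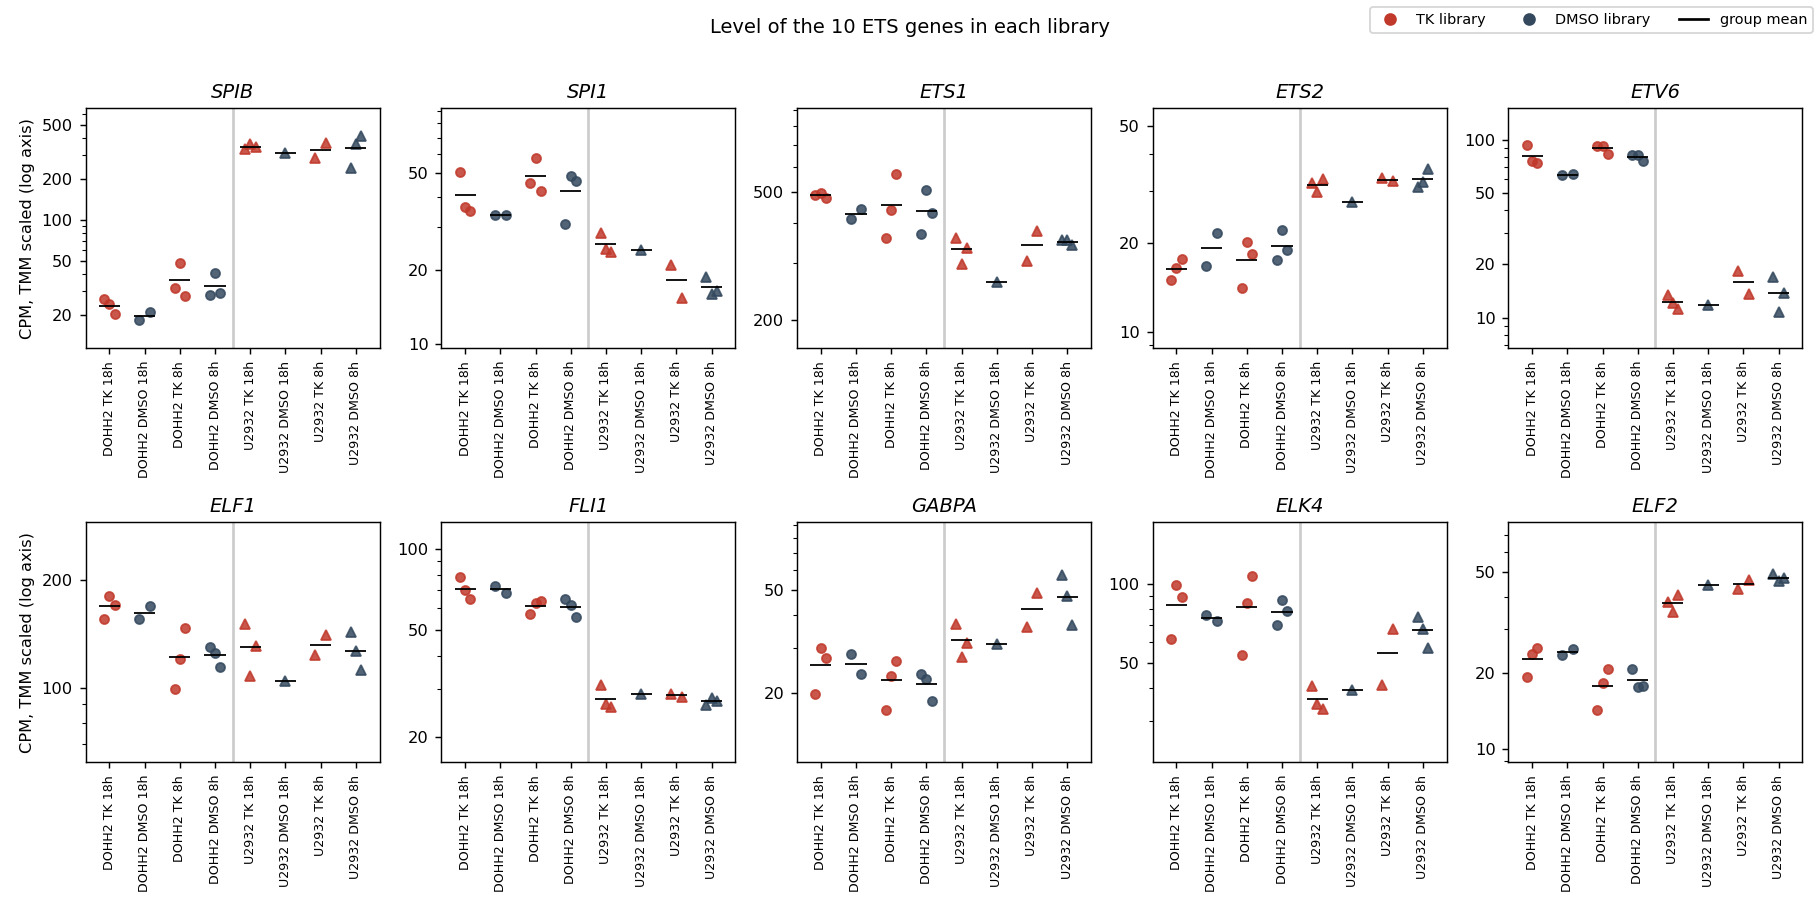
Level of each ETS gene in every library, in CPM on log axes, with 1 panel per gene and the 8 groups along the x axis (DOHH2 as circles left of the line, U2932 as triangles right of it, TK in red, DMSO in dark grey-blue, bars at group means). SPIB lies at 18.4 to 48.7 CPM in DOHH2 and 239.8 to 411 CPM in U2932. Within a line and time the libraries spread by gene, ELK4 in DOHH2 at 8 h from 53.6 to 107 CPM.

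**Figure D3:**
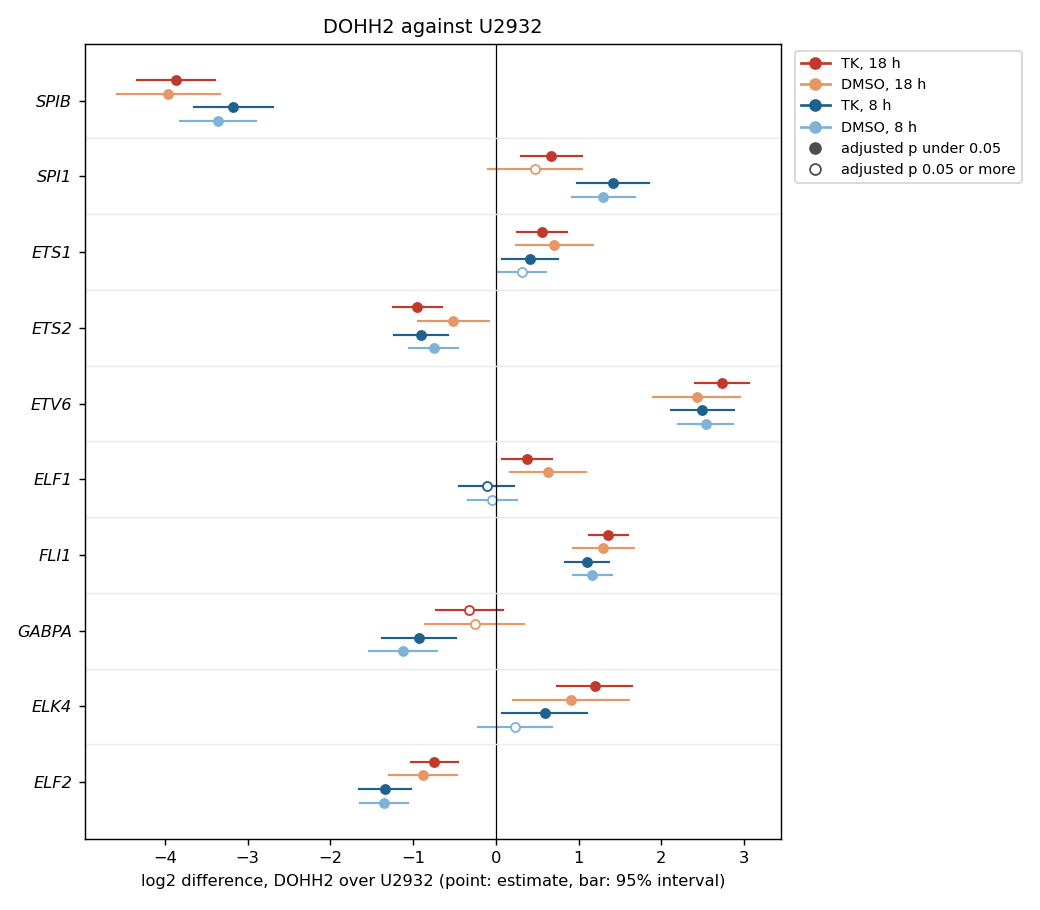
Log2 difference of DOHH2 over U2932 for each ETS gene in the 4 comparisons, with 95% intervals and filled points where the adjusted p is under 0.05. SPIB lies at -3.96 to -3.17 and ETV6 at 2.43 to 2.73, and SPIB, ETS2, ETV6, FLI1 and ELF2 have filled points in all 4.

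The spread of each gene over the 20 libraries on the log2 scale was also split by line and by group. The lines took 97.2% of the variance of ETV6, 96.7% of SPIB, 96.6% of FLI1, 87.3% of ELF2 and 86.8% of ETS2, 74.9% of SPI1, 61.3% of ETS1, 60.5% of GABPA, 48.8% of ELK4 and 10.8% of ELF1. The median over 10086 genes with a mean of at least 5 CPM was 66.1%. Groups within a line took 54.1% for ELF1, 26.2% for ELK4 and 17.5% for GABPA, against a median of 14.2%.

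TK against DMSO moved none of the 10 ETS genes past the threshold in either line at either time. In edgeR, 0 of 10 members passed in DOHH2 at 18 h, where 12 of 16478 genes (0.0728%) did, and 0 of 10 passed in U2932 at 18 h, where 3 genes (0.0182%) did. At 8 h 0 of 10 members and 0 genes (0%) passed in DOHH2, and the same in U2932 (0%). At an unadjusted p under 0.05, 1 member was found in DOHH2 at 18 h (8.56% of all genes), and 0 in U2932 at 18 h (7.45%), DOHH2 at 8 h (3.02%) and U2932 at 8 h (1.67%). DESeq2 and limma's voom with library quality weights also passed 0 of 10 members in all 4 comparisons. Of all 16478 genes, DESeq2 passed 85 in DOHH2 and 60 in U2932 at 18 h, and voom 1974 and 236. At 8 h both methods passed 0 genes in either line.

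The member with an unadjusted p under 0.05 was ETV6 in DOHH2 at 18 h, at 93.7, 75.6 and 74.1 CPM with TK and 63.0 and 64.2 CPM with DMSO. Every TK library lay above both DMSO libraries, the highest being the library with many reads of no unique position. The log2 change was 0.35 (SE 0.17, unadjusted p = 0.0471, adjusted p = 0.572 by edgeR), and with 1 library of these groups left out at a time it ran from 0.23 (without TK replicate 1) to 0.41 (adjusted p 0.512 to 1). ETV6 changed by 0.05 in U2932 at 18 h (SE 0.22), 0.16 in DOHH2 at 8 h (SE 0.15) and 0.20 in U2932 at 8 h (SE 0.17), none past the threshold.

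SPI1 with TK was at 50.7, 36.5 and 35.1 CPM in DOHH2 at 18 h, against 33.7 and 33.6 CPM with DMSO, which gave a log2 change of 0.28 (SE 0.20, adjusted p = 0.781 by edgeR) and 0.09 without TK replicate 1. ETS1 in U2932 at 18 h was at 361, 299.8 and 334 CPM with TK, against 262 CPM in the single DMSO library (0.34, SE 0.21, adjusted p = 0.771), and ELF1 there was at 151, 108 and 131 CPM with TK, against 105 CPM (0.31, SE 0.20, adjusted p = 0.783). In each of these the TK libraries lay above DMSO, by less than the test required. SPIB changed by 0.25 in DOHH2 at 18 h (SE 0.23), 0.16 in U2932 at 18 h (SE 0.28), 0.14 in DOHH2 at 8 h (SE 0.20) and -0.05 in U2932 at 8 h (SE 0.22). ELK4 in U2932 at 8 h had the lowest estimate, -0.29 (SE 0.24, adjusted p = 1). With 1 library of these groups left out at a time, this estimate ran from -0.69 to 0.02.

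Libraries with TK lay wholly apart from those with DMSO for 3 members in DOHH2 at 18 h (SPI1, ETS1 and ETV6 above), where 25% of all genes were apart. In U2932 at 18 h they were apart for 5 members (SPIB, ETS1, ETS2 and ELF1 above, ELF2 below), and 63.8% of all genes were apart from the single DMSO library. At 8 h they were apart for 1 member in DOHH2 (ETV6 above, 5.56% of all genes) and 1 in U2932 (FLI1 above, 14%). The 95% intervals of the 10 members reached from -0.57 to 0.74 in DOHH2 at 18 h, -0.75 to 0.77 in U2932 at 18 h, -0.45 to 0.57 in DOHH2 at 8 h and -0.79 to 0.56 in U2932 at 8 h on the log2 scale. These are the outermost bounds over the 10 genes, and single genes had narrower ones, such as FLI1 in DOHH2 at 8 h (-0.22 to 0.24). The median absolute log2 change of the members was 0.18 in DOHH2 at 18 h (0.18 over all genes), 0.14 in U2932 at 18 h (0.22), 0.07 in DOHH2 at 8 h (0.12) and 0.08 in U2932 at 8 h (0.12).

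**Figure D4:**
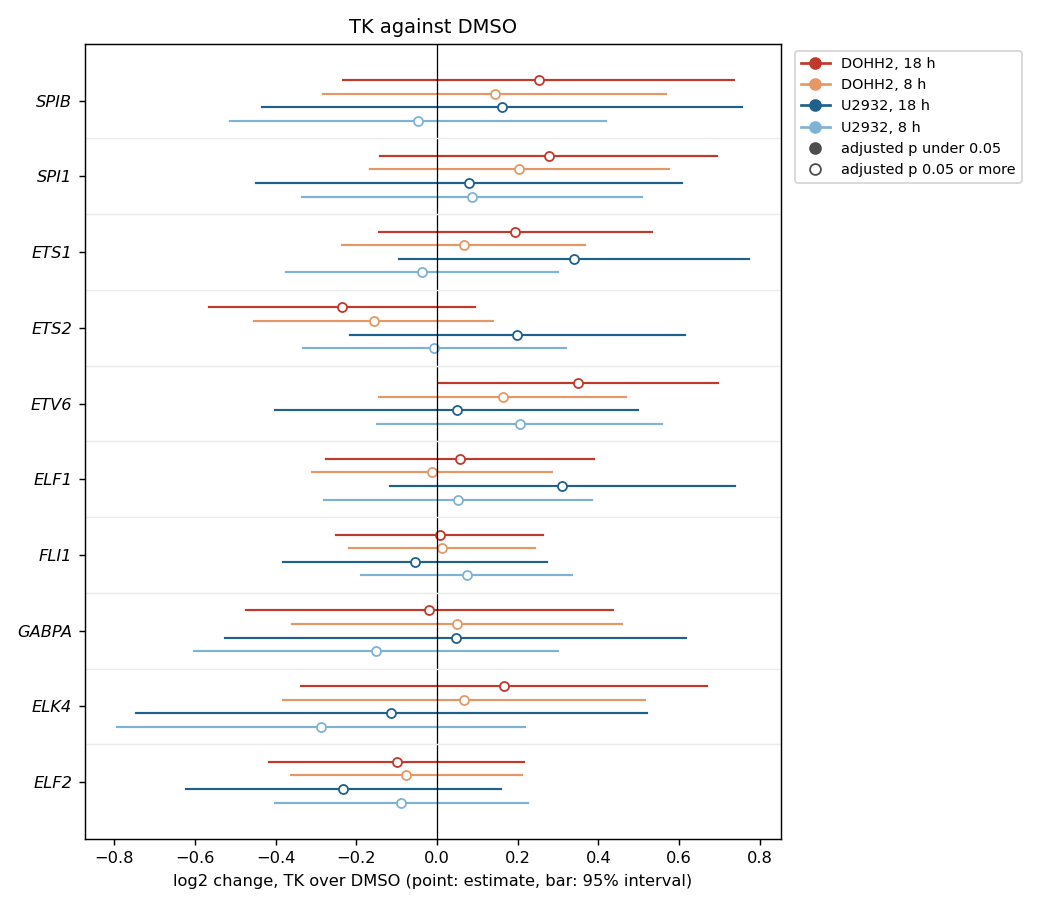
Log2 change of TK over DMSO for each ETS gene in DOHH2 and U2932 at 18 h and 8 h, with 95% intervals. All points are open, that is with an adjusted p of 0.05 or more, and the estimates lie between -0.29 and 0.35.

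Whether TK acted differently in the lines or at the times was tested by the difference of its log2 changes. By edgeR 0 of 10 members passed, with adjusted p from 0.839 to 1, and 0 had an unadjusted p under 0.05. Of all genes, 0.0243% passed between the lines at 18 h (6.17% unadjusted), 0% between the lines at 8 h (1.92%), 0.0121% between the times in DOHH2 (4.32%) and 0.00607% between the times in U2932 (3.11%). The largest was ETS2 between the lines at 18 h, at -0.44 (SE 0.26), with 16.3 ± 1.34 CPM with TK and 19.2 ± 3.51 CPM with DMSO in DOHH2, and 31.5 ± 1.65 CPM with TK and 27.4 CPM with DMSO in U2932 (SD, n = 3, 2, 3 and 1).

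Set against 8 h, the libraries at 18 h gave lower SPIB and higher ELF1 estimates in DOHH2 and lower ELK4 estimates in U2932, none past the threshold. With TK, time in culture and time with the compound cannot be told apart. U2932 with DMSO had 1 library at 18 h. With edgeR 0 of 10 members passed in DOHH2 with TK (1.57% of all genes), in U2932 with TK (0.218%), in DOHH2 with DMSO (0.631%) and in U2932 with DMSO (0.0364%). At an unadjusted p under 0.05 there were 3 members in DOHH2 with TK (18% of all genes), 3 in U2932 with TK (18.7%), 3 in DOHH2 with DMSO (10.8%) and 2 in U2932 with DMSO (11.4%). SPIB in DOHH2 with TK was at 26.2, 24.1 and 20.3 CPM at 18 h and 31.9, 48.7 and 27.9 CPM at 8 h. All 18 h libraries lay below all 8 h libraries, and the log2 change was -0.62 (SE 0.21, adjusted p = 0.118). With DMSO SPIB was at 18.4 and 21.1 CPM at 18 h and 28.2, 41.0 and 28.98 CPM at 8 h, again without overlap (-0.73, SE 0.23, adjusted p = 0.209). In U2932 the SPIB change was 0.08 with TK (SE 0.22) and -0.13 with DMSO (SE 0.28).

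ELF1 in DOHH2 was at 155, 181 and 169.9 CPM at 18 h and 99.5, 121 and 147 CPM at 8 h with TK, a log2 change of 0.46 (SE 0.14, adjusted p = 0.0976 by edgeR), and changed by 0.39 with DMSO (SE 0.16, adjusted p = 0.346). ELF2 in DOHH2 changed by 0.35 with TK (SE 0.14, adjusted p = 0.174) and 0.38 with DMSO (SE 0.15, adjusted p = 0.346). For ELF1 the times did not overlap in either treatment, and for ELF2 they overlapped with TK. ELK4 in U2932 was at 41.0, 34.8 and 33.5 CPM at 18 h and 41.2 and 67.6 CPM at 8 h with TK (-0.58, SE 0.24, adjusted p = 0.199), and at 39.4 CPM at 18 h and 75.1, 67.4 and 57.0 CPM at 8 h with DMSO (-0.76, SE 0.32, adjusted p = 0.387). SPI1 in U2932 changed by 0.49 with TK (SE 0.20, adjusted p = 0.200) and 0.50 with DMSO (SE 0.25, adjusted p = 0.449). With limma's voom, an alternative chosen after seeing the data, SPIB, SPI1, ELF1 and ELF2 passed in DOHH2 with either treatment and ELK4 in U2932 with either. Of all 16478 genes, voom passed 4072 in DOHH2 with TK, 1837 in DOHH2 with DMSO, 1608 in U2932 with TK and 1513 in U2932 with DMSO. Without DOHH2 TK 8 h replicate 3, where 1268 of all genes passed in place of 258, SPIB (-0.78, adjusted p = 0.0324), ELF1 (0.61, adjusted p = 0.0172) and ELF2 (0.48, adjusted p = 0.0454) passed in DOHH2 with TK in edgeR.

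**Figure D5:**
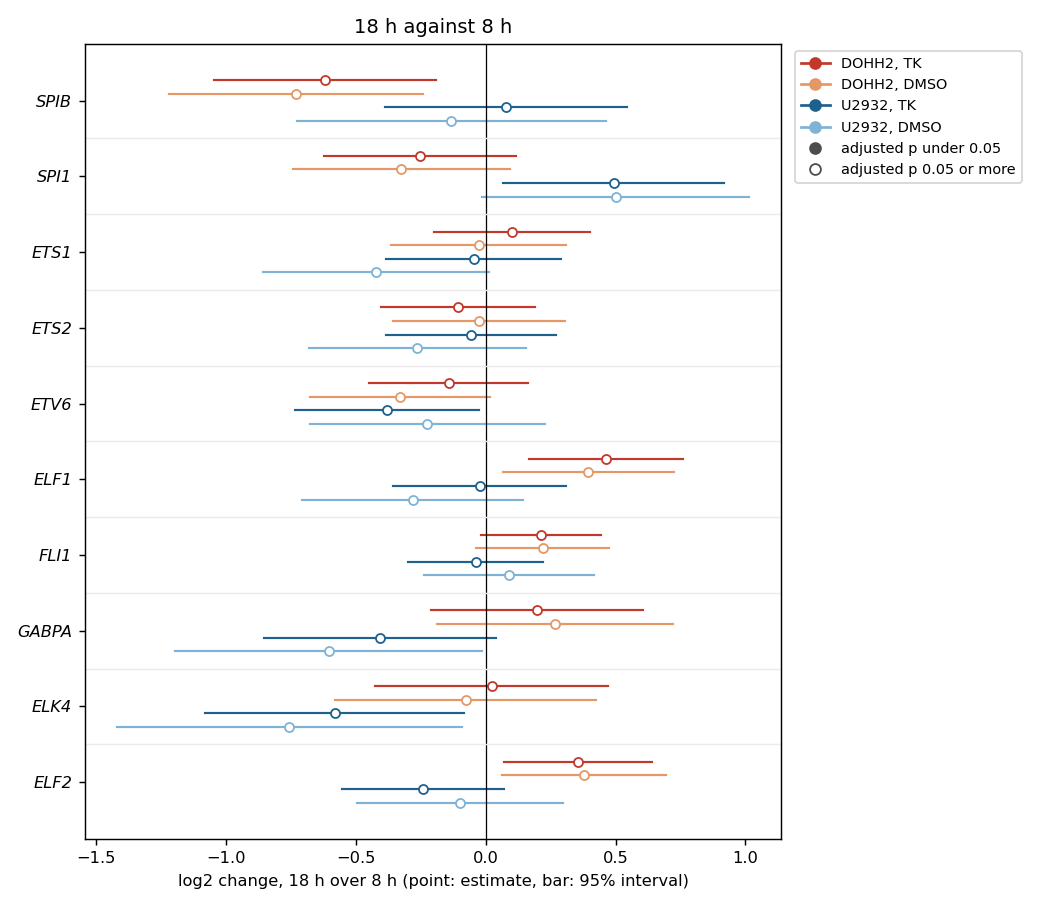
Log2 change of 18 h over 8 h for each ETS gene in each line and treatment, with 95% intervals. All points are open (adjusted p of 0.05 or more); SPIB lies at -0.62 with TK and -0.73 with DMSO in DOHH2, and at 0.08 with TK and -0.13 with DMSO in U2932.

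The line differences at 18 h were set against those at 8 h, a test added after seeing the data. With edgeR 0 of 10 members passed with TK, where 6.69% of all genes did, and 0 of 10 with DMSO, where 0.0121% did. At an unadjusted p under 0.05 there were 4 with TK (25.6% of all genes) and 3 with DMSO (11%). The nearest to the threshold with TK were ELF2 (0.60, SE 0.20, adjusted p = 0.0739) and SPI1 (-0.74, SE 0.27, adjusted p = 0.0904). SPI1 passed without DOHH2 TK 18 h replicate 1 (-0.93, adjusted p = 0.0297) or DOHH2 TK 8 h replicate 3 (-0.84, adjusted p = 0.0456), and so did ELF2 (0.70, adjusted p = 0.0284 and 0.72, adjusted p = 0.0194). ELF1 passed without DOHH2 TK 8 h replicate 3 (0.64, adjusted p = 0.0381). Of all 16478 genes, 1103 passed with all libraries, 1969 without DOHH2 TK 18 h replicate 1 and 2689 without DOHH2 TK 8 h replicate 3. With DMSO the difference was 0.87 for GABPA (SE 0.36, adjusted p = 0.415) and -0.82 for SPI1 (SE 0.32, adjusted p = 0.401).

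The other 18 ETS genes add the rest of the family. The 9 that could not be tested stayed at or below 1.04 CPM in every library, among them ERG, FEV, ETV1 and SPIC. Of the 9 tested, 2 were higher and 4 lower in DOHH2 with DMSO at 8 h, where 33% of all genes were higher and 34.9% lower. ERF, a repressor, was higher in DOHH2 (log2 difference 1.39, SE 0.17, adjusted p = 3.30e-07 by edgeR), as was ELK1, the close relative of ELK4 (0.47, SE 0.15, adjusted p = 0.0104). ELF4 (-1.11, SE 0.20, adjusted p = 4.69e-05) and ELK3 (-0.91, SE 0.22, adjusted p = 0.000900) were lower. With TK none of the 9 passed. The smallest p at 18 h was that of ETV5, at 0.285 ± 0.140 CPM with TK and 0.0512 ± 0.0292 CPM with DMSO in DOHH2 (adjusted p = 0.409) and 4.21 ± 2.55 CPM with TK and 1.82 CPM with DMSO in U2932 (adjusted p = 0.622).

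Partners and known targets of the ETS members were read from lists of which no gene passed for TK in either line at either time. Among 16 partners and cofactors, 7 were higher and 5 lower in DOHH2 with DMSO at 8 h, a comparison in which 67.8% of all genes passed (33% higher and 34.9% lower). IRF8, which binds with PU.1 and Spi-B, averaged 107 ± 24.7 CPM in the 3 DOHH2 libraries against 260.2 ± 34.1 CPM in the 3 of U2932 (log2 difference -1.28, SE 0.16, adjusted p = 5.26e-07 by edgeR), and IRF4, another such partner, 871 ± 45.7 CPM in DOHH2 against 402 ± 29.2 CPM in U2932 (1.11, SE 0.12). RUNX3, a partner of ETS1 in lymphocytes, was higher (1.66, SE 0.20) and its relative RUNX1 lower (-1.94, SE 0.15). Among 16 B cell targets of PU.1 and Spi-B, 7 were higher and 4 lower, beside the same 67.8% of all genes. P2RY10, a receptor of B cells, averaged 64.4 ± 11.0 CPM in DOHH2 against 0.333 ± 0.0368 CPM in U2932, and FCER2, the low-affinity IgE receptor, 24.7 ± 5.41 CPM in DOHH2 against 0.303 ± 0.213 CPM in U2932. MS4A1, which makes CD20, averaged 93.3 ± 22.3 CPM in DOHH2 against 1279 ± 205 CPM in U2932 (SD, n = 3 each for these genes).

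Among 13 targets of ELK factors and SRF, 3 were higher and 5 lower in DOHH2 with DMSO at 8 h (33% and 34.9% of all genes), with MCL1, a survival factor, at 245 ± 10.3 CPM in DOHH2 against 2587 ± 205 CPM in U2932 and EGR1, an immediate early factor, at 1.35 ± 0.830 CPM in DOHH2 against 20.4 ± 3.28 CPM in U2932 (SD, n = 3 each). VCL went the other way, 4.52-fold higher in DOHH2 (log2 difference 2.18, SE 0.17, adjusted p = 2.68e-10 by edgeR). Among 10 targets of GABPA, 6 were higher and 0 lower beside those shares, led by TFB1M (log2 difference 0.90, SE 0.16, adjusted p = 4.50e-05 by edgeR) and MRPL12 (0.70, SE 0.17, adjusted p = 0.000955), both of mitochondrial gene expression. GABPA itself was lower there. The GABPA targets were 4 higher and 4 lower with TK at 18 h (34.2% and 34.9% of all genes), 4 and 0 with DMSO at 18 h (25.4% and 26.9%) and 5 and 0 with TK at 8 h (30.7% and 32.1%). With DMSO at 8 h the median log2 difference was 0.41 for the GABPA targets, -0.18 for the ELK and SRF targets and 0.08 for the targets of PU.1 and Spi-B, and -0.03 over all genes.

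With TK, no listed gene passed the threshold. FCGR2B, the inhibitory Fc receptor, averaged 3.74 ± 0.816 CPM with TK and stood at 7.27 CPM with DMSO in U2932 at 18 h (log2 change -0.97, SE 0.27, adjusted p = 0.374 by edgeR, SD, n = 3 and 1). SIN3A, a corepressor, averaged 81.8 ± 3.20 CPM with TK against 113 CPM with DMSO there (-0.47, SE 0.15, adjusted p = 0.465), and TFB2M, a GABPA target, 68.0 ± 5.93 CPM with TK against 46.4 CPM with DMSO (0.55, SE 0.20, adjusted p = 0.561). The DMSO value in U2932 at 18 h is 1 library. At 8 h the smallest p of any listed gene was that of P2RY10 in U2932 (0.75, SE 0.35, unadjusted p = 0.0464, adjusted p = 1).

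The gene whose profile over the 8 groups was most like each member's was found by the root mean square difference between group means of log2 CPM, each profile centred, over 10085 other genes with a mean of at least 5 CPM. It was RGS2 for SPIB (0.116), SAT2 for SPI1 (0.0899), EIF4G2 for ETS1 (0.0483), BAG2 for ETS2 (0.0775) and CYTH3 for ETV6 (0.0869). It was ODF2L for ELF1 (0.0477), DNAJC21 for FLI1 (0.0361), UHRF1BP1 for GABPA (0.0491), CD164 for ELK4 (0.0486) and PRIM2 for ELF2 (0.0540). SPIB, which spanned 4.12 on the log2 scale over the groups, had the most distant nearest gene, and FLI1, which spanned 1.39, the closest.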

How the data were processed

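Per the labels, polyadenylated RNA was sequenced. The submitters' processing notes name STAR, HTSeq and edgeR, with the genome build GRCh38.p10. The deposited values are raw counts for 58288 genes in each of 20 libraries, with 5 summary rows that were left out of totals and tests (32.7 to 62.7% of all counts). The sources used here do not give the annotation or strand setting.

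All libraries were fitted together in edgeR 4.0.16 (R 4.3.3, TMM, robust quasi-likelihood, 8 group coefficients). Genes needed 0.288 CPM, equal to 10 counts in the median library, in at least 3 libraries, which left 16478 of 34160 genes with a count. P-values were adjusted by Benjamini-Hochberg over all of them. The single DMSO library of U2932 at 18 h was taken to vary as the other groups do. Gene positions are from GENCODE v29, where all 10 members had the same versioned identifier. The fits were tested on simulated counts, with changes larger than the TK estimates of the 10 members. That check thus does not show whether changes as small as these estimates would be found.

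The 10 members, the gene lists and the rule for named genes were chosen with earlier results of these data known. The rule took every member, and from each list the genes past the threshold for TK, or else that of the smallest p, and for the lines up to 4 of the largest differences with a mean of at least 5 CPM; IRF4, BCL6 and SPIC, ERG, FEV and ETV1 were named outside it after their values were seen. Alternatives were RLE scaling, other filters, DESeq2 1.42.0, fewer libraries, a replicate block, pooled DMSO controls and limma 3.58.1 voom. Results for 2 of the listed genes are not reported here.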

Additional observations from a re-analysis of the deposited data

How the results depend on the processing

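For TK, in each line and time and in the differences between lines and between times, 0 of 10 members passed under every alternative run, leaving out each library included (0 to 0), although counts of all genes varied widely. In DOHH2 at 18 h 12 genes passed, 170 with no filter, 85 in DESeq2, 62 with DMSO of both times as control, 76 without the 2 libraries that stood apart, 6 with DOHH2 libraries only and 1974 in voom, and in U2932 at 18 h 3 passed, 102 with no filter, 60 in DESeq2, 1654 with DMSO of both times, 5 with U2932 libraries only, 1 at a filter of 50 counts or with a replicate block and 236 in voom. At 8 h 0 passed, with no filter 32 in DOHH2 and 9 in U2932. With 1 library left out they numbered 1 to 18 in DOHH2 at 18 h, the fewest without DMSO replicate 3, and 1 to 4 in U2932 at 18 h. Of 510 single-gene values for TK under alternatives, 62 had the other sign, none of them past the threshold.

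Between the lines the counts of members were 6 to 9 under all alternatives, and none of the 480 single-gene values changed sign with a call, while 18 lost the threshold and 4 gained it. The share of all genes that passed there varied with the setting. With no filter 12211 of 34160 genes passed with TK at 18 h and 8488 with DMSO at 18 h. At 8 h these were 10854 with TK and 11998 with DMSO. With TK at 18 h 11430 of 16478 genes passed in DESeq2 and 13142 in voom, and with DMSO at 8 h 11214 and 12748. For 18 h against 8 h the counts were 1 with no filter and 4 in voom in DOHH2 with DMSO, 1 in voom in U2932 with DMSO, 2 with no filter, 1 in DESeq2 and 4 in voom in DOHH2 with TK, and 1 with no filter and 1 in voom in U2932 with TK, against 0. Of all genes, 861 of 34160 passed with no filter in DOHH2 with TK, 445 in DOHH2 with DMSO and 739 in U2932 with TK. DESeq2 passed 864 of 16478 in DOHH2 with TK. Voom passed 4072 there, 1837 in DOHH2 with DMSO, 1608 in U2932 with TK and 1513 in U2932 with DMSO. Over all alternatives, genes past the threshold for 18 h against 8 h numbered 31 to 4072 in DOHH2 with TK (258 as reported), 0 to 1608 in U2932 with TK (36), 0 to 1837 in DOHH2 with DMSO (104) and 1 to 1513 in U2932 with DMSO (6). With libraries left out the members past it were 0 to 3 in DOHH2 with TK (3 without DOHH2 TK 8 h replicate 3) and 0 to 0 elsewhere. The cause was not tested. Voom, and leaving out the 2 libraries that stood apart, were added once the data had been seen. For the difference of line differences with TK, 2 members passed with no filter (1769 of 34160 genes), 1 in DESeq2 (2098 of 16478), 1 without the 2 libraries that stood apart (863) and 6 in voom (4125), and with DMSO 3 in voom (1139).

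Libraries of the same replicate number did not deviate together throughout (correlations of deviations from group means, -0.159 to 0.588). The highest was replicate 2 of DOHH2 at 8 h, TK with DMSO (at most 0.00587 with another number). The lowest was replicate 2 of DOHH2 with TK, 18 h with 8 h (at most 0.504). Deviations from a mean of 2 or 3 libraries depend on one another, so these values cannot exclude pairing. The numbers were not read as pairs. With the replicate number as a block, 0 members passed for TK and for 18 h against 8 h. Of all 16478 genes, 11 then passed for TK in DOHH2 and 1 in U2932 at 18 h. At 8 h 0 passed in either line. For 18 h against 8 h with TK, 258 passed in DOHH2 and 128 in U2932. With DMSO these were 98 and 15. ETS2 between the lines with DMSO at 18 h was the 1 member call that the block changed (-0.46, adjusted p = 0.0681 by edgeR), as with no filter (-0.58, adjusted p = 0.0613). In the libraries of the 2 groups alone, ETS1 (0.41, adjusted p = 0.108) and ELK4 (0.58, adjusted p = 0.0916) with TK at 8 h did not pass, nor at a filter of 50 counts (0.37, adjusted p = 0.0565 and 0.54, adjusted p = 0.0623). The single DMSO library of U2932 at 18 h could not be left out. The 10 members had 364 to 26591 counts in a library.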
